A study of Mus musculus with 6 samples.

Results

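The RNA of 10 genes widely used to mark mesenchymal stem cells and the cells that wrap blood vessels was examined in the proximal end of the mouse incisor. The members were chosen by name: Rgs5, Pdgfrb, Acta2, Cspg4 and Mcam as perivascular markers, and Pdgfra, Thy1, Ly6a, Eng and Nt5e as mesenchymal markers. They are 10 of the 19060 genes in the deposited count table, and all 10 were among the 15826 genes that passed the filter on low counts. Bulk RNA sequencing covered 3 control and 3 mutant samples from mice 1 month old, collected 1 week after tamoxifen. Both groups carried Fgfr1fl/fl, in which both Fgfr1 alleles are flanked by loxP sites, and per the study's methods both received tamoxifen by injection. The mutant mice also carried Gli1CreER (Gli1-Cre in the labels, where the control genotype is given as wild type), so that Fgfr1 was targeted only in cells that express Gli1 and their descendants, within a dissected tissue that also held other cells. The labels do not say whether each sample came from a separate animal, so the p-values measure the spread between these samples.

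The incisor grows throughout life from mesenchymal stem cells at its proximal end, which lie around the neurovascular bundle and express Gli1. Pericytes sit on capillaries and smooth muscle cells on larger vessels, and both respond through the receptor PDGFRB to PDGF-B released by endothelial cells. Surface proteins such as CD90 (Thy1), CD105 (Eng), CD73 (Nt5e) and Sca-1 (Ly6a) are used to enrich stromal progenitors, but each is also made by other cell types. In bulk RNA, fewer cells of a type and less RNA per cell cannot be told apart.

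The control samples held 31060207 to 32712454 counts and the mutant samples 5276568 to 11819566, so depth and genotype cannot be told apart. Fgfr1 itself had 529, 924 and 434 CPM (counts scaled to a common library size by the upper quartile) in control samples 1, 2 and 3, and 148, 318 and 262 CPM in mutant samples 1, 2 and 3, the order in which all values are listed. No mutant value reached the lowest control value (log2 change -1.37, SE 0.40, adjusted p = 0.0881, edgeR's quasi-likelihood test). After the length and GC correction described below, its groups overlapped (log2 change -0.75, SE 0.29, adjusted p = 0.265, edgeR). Gli1 stood at 22.6, 23.8 and 33.4 CPM in controls and at 10.9, 24.6 and 22.8 CPM in mutants, which overlapped. The labelled tissue was checked against its markers: the ameloblast gene Amelx had at least 15184 CPM and the odontoblast gene Dspp at least 1590 CPM in every sample. The summed level of skeletal muscle genes was highest in control sample 2 (2870 CPM) and mutant sample 1 (6562 CPM). It was 11.8 and 31.2 CPM in control samples 1 and 3, and 173 and 1068 CPM in mutant samples 2 and 3. The part of these genes in the results below was not tested. Without control sample 2 and mutant sample 1, the log2 changes of the members ran from -0.76 for Ly6a (SE 0.50) to 0.92 for Rgs5 (SE 0.43). In that fit 0 members passed the study's threshold given next, but the skeletal muscle level was still higher in both remaining mutant samples.

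None of the 10 members was called at an adjusted p under 0.05 (edgeR's quasi-likelihood test over all genes), against 6.79% of all genes tested. At an unadjusted p under 0.05, 3 members passed in edgeR (beside 20.1% of all genes), 3 in DESeq2 and 1 in limma voom, and neither DESeq2 nor limma voom called a member after adjustment. At the study's threshold, an unadjusted p under 0.05 with a change of over 1.5-fold, Pdgfrb, Acta2 and Eng were lower in the mutant samples and no member was higher, beside 8.92% of all genes lower and 10.9% higher. The groups did not overlap for 3 members, Acta2, Eng and Rgs5, beside 30.4% of all genes, so this share was near the background. The median log2 change of the members was -0.20, against -0.040 for all genes tested, and 9 of the 10 values were below 0. Of these, Thy1, Cspg4, Mcam and Nt5e, at -0.033 to -0.071, lay near the median of all genes. The share of all genes below 0 was not counted.

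**Figure D1:**
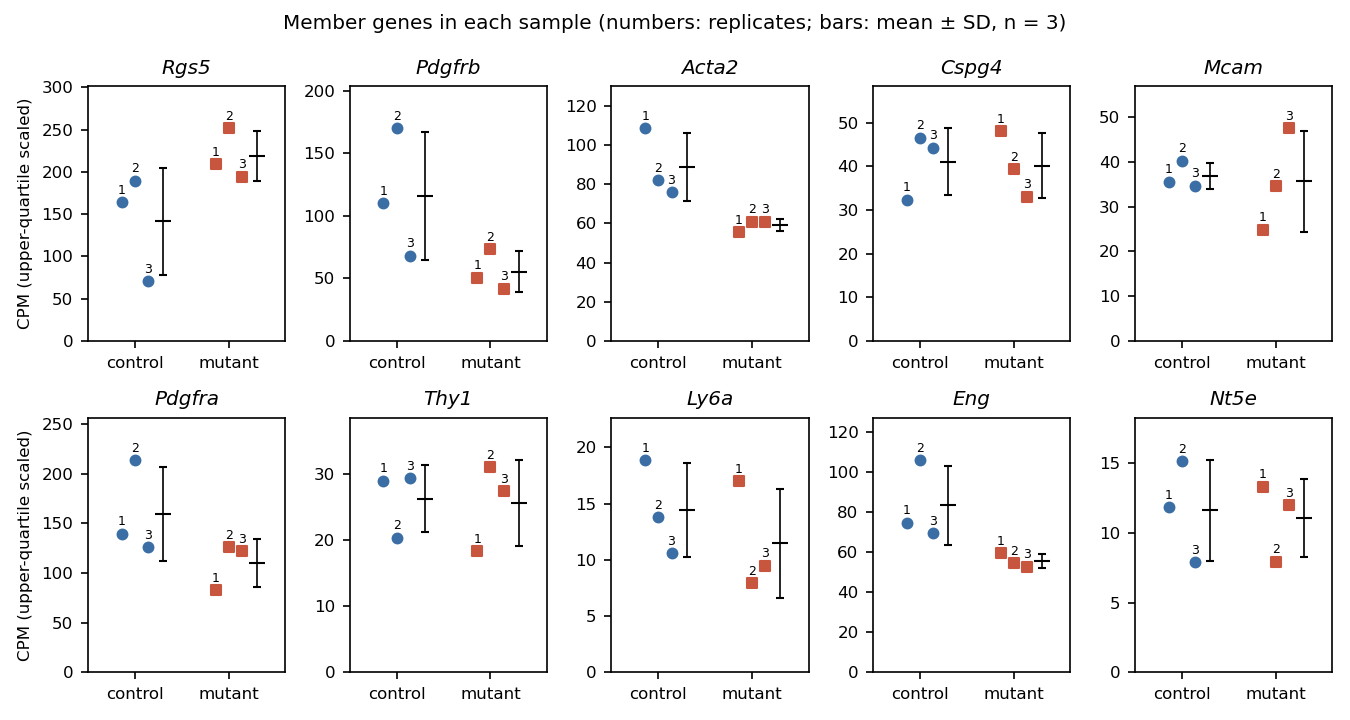
Level of each member in each sample, in CPM after upper-quartile scaling on axes that start at 0. Circles are the control and squares the mutant samples, numbered by replicate, and the bars beside them give the mean and SD (n = 3). Acta2 and Eng lay lower in every mutant sample, Rgs5 lay higher in every mutant sample, and the groups of the other members overlapped.

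Pdgfrb, the receptor through which pericytes are recruited to vessels (chromosome 18 of GRCm38, from 61045150 to 61085061), had the largest change among the members. It had 110.0, 169.7 and 68.2 CPM in control samples 1, 2 and 3, and 50.4, 73.4 and 41.6 CPM in mutant samples 1, 2 and 3. Control sample 2 was the highest and mutant sample 3 the lowest, and the groups overlapped because mutant sample 2 lay above control sample 3. The level was 2.10-fold lower in the mutant group (log2 change -1.07, SE 0.37, adjusted p = 0.147, edgeR). The adjusted p was between 0.0540, with DESeq2, and 0.589 over the alternatives tried. It was no longer past the study's threshold without control sample 2 (log2 change -0.69, SE 0.34), mutant sample 1 (-1.03, SE 0.45) or mutant sample 3 (-0.92, SE 0.43), and without both control sample 2 and mutant sample 1 the change was -0.63 (SE 0.38).

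Acta2, which encodes the smooth muscle actin of contractile mural cells (chromosome 19, from 34241090 to 34255590, minus strand), stood at 108, 82.1 and 75.9 CPM in controls. The mutant samples had 55.4, 61.0 and 61.0 CPM, close to each other and all below the lowest control sample. The log2 change was -0.59 (SE 0.23, adjusted p = 0.192, edgeR), which stood almost on the 1.5-fold limit of the study's threshold. It passed that threshold without control sample 2 or 3 but not without control sample 1 (log2 change -0.42, SE 0.24) or without mutant sample 1, 2 or 3 (-0.56, -0.62 and -0.62, each with an SE of 0.27).

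Rgs5, a GTPase-activating protein for G protein signalling and a common pericyte marker (chromosome 1, from 169655501 to 169695813), had a log2 change in the opposite direction. It stood at 164, 189.5 and 70.4 CPM in controls and at 209, 251 and 195 CPM in mutants. Every mutant sample lay above every control sample, and control sample 3 lay far below the other two. The log2 change of 0.63 (SE 0.37) was not past the threshold (adjusted p = 0.402, edgeR). It was 0.30 without control sample 3 and 0.90 without control sample 2, where it passed the study's threshold, and 0.92 without both control sample 2 and mutant sample 1, where it did not.

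Before the length and GC correction described below, Cspg4 and Mcam, the genes of the surface proteins NG2 and CD146, showed no difference larger than the replicate spread. Cspg4 (chromosome 9, from 56865033 to 56899870) stood at 32.4, 46.6 and 44.2 CPM in controls and at 48.0, 39.4 and 33.1 CPM in mutants. Mcam (chromosome 9, from 44134469 to 44142727) stood at 35.6, 40.3 and 34.7 CPM in controls and at 24.9, 34.6 and 47.5 CPM in mutants. The mutant values of Mcam spread on both sides of the control values, and the log2 changes were -0.034 for Cspg4 (SE 0.28) and -0.045 for Mcam (SE 0.31). The summed level of the 5 perivascular members overlapped between the groups, at 424 ± 120 CPM in controls and 409 ± 44.7 CPM in mutants (mean ± SD, n = 3 per group).

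Because the same scaling enters every gene of a sample, the ratio of a pair of members within a sample does not depend on it. The Rgs5 to Pdgfrb ratio was 1.49, 1.12 and 1.03 in control samples 1, 2 and 3. In mutant samples 1, 2 and 3 it was 4.15, 3.42 and 4.68, above every control value. The Rgs5 to Acta2 ratio was 1.51, 2.31 and 0.927 in the control and 3.78, 4.12 and 3.19 in the mutant samples, again without overlap. Of the 45 pairs of members, 5 (11.1%) did not overlap between the groups, and all 5 set Rgs5 over another member: Pdgfrb, Acta2, Eng, Pdgfra or Nt5e. This was below the 32.4% of all pairs of genes with counts in every sample, so separate ratios were not more common among the members.

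**Figure D2:**
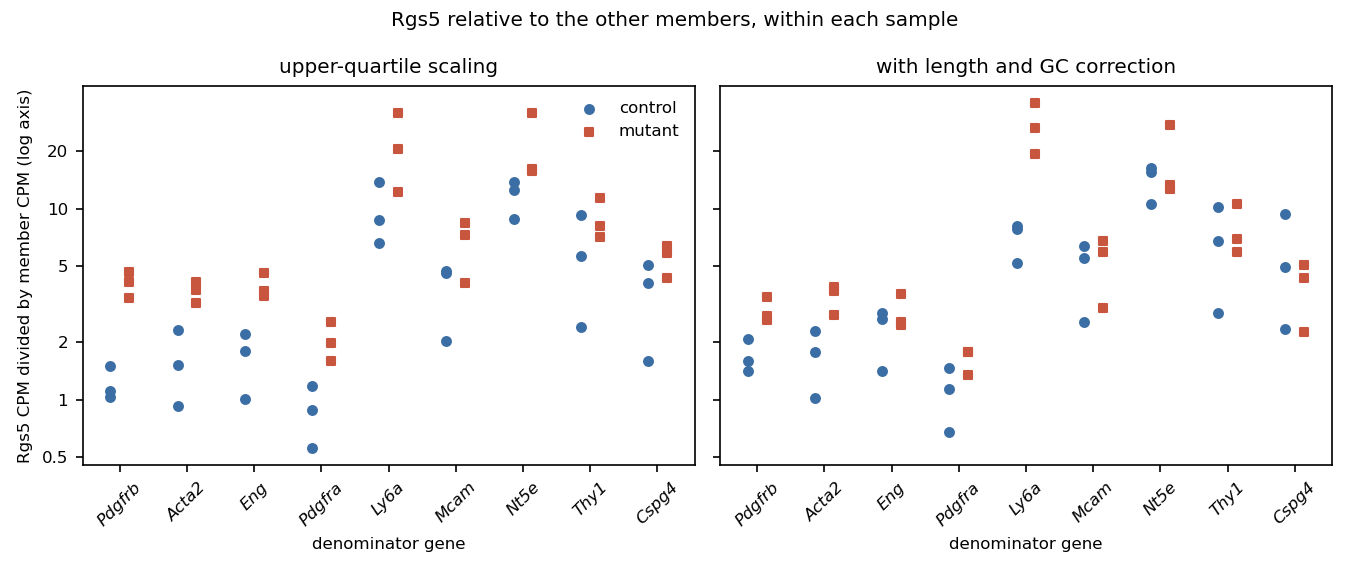
Rgs5 level divided by that of each other member within each sample, on a log axis, before (left) and after (right) the length and GC correction. Circles are control and squares mutant samples (n = 3 each); the groups stay apart in both panels for Pdgfrb and Acta2, while for Eng, Pdgfra and Nt5e they stay apart only before the correction.

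Among the mesenchymal markers, Pdgfra, the PDGF receptor of fibroblasts and many mesenchymal progenitors (chromosome 5, from 75152292 to 75198215), stood at 139.5, 214 and 126 CPM in controls. The mutant samples had 82.5, 126 and 122 CPM. Control sample 2 was the highest and mutant sample 1 the lowest, which are also the 2 libraries with the most skeletal muscle RNA, and mutant sample 2 lay just above control sample 3. The log2 change was -0.53 (SE 0.29, adjusted p = 0.369, edgeR) and came to -0.099 without those 2 libraries.

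Eng, the gene of the TGF-beta co-receptor endoglin, which is strongest in endothelium (chromosome 2, from 32646595 to 32682669), stood at 74.6, 106 and 69.5 CPM in controls. The mutant samples had 59.6, 54.3 and 52.7 CPM, all below the lowest control sample. The log2 change was -0.59 (SE 0.24, adjusted p = 0.223, edgeR), again close to the 1.5-fold limit. It passed the study's threshold without control sample 1 or 3, but not without control sample 2 (log2 change -0.38, SE 0.22) or without mutant sample 1, 2 or 3 (-0.66, -0.58 and -0.56, each with an SE of 0.29).

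Thy1, Ly6a and Nt5e were the lowest of the mesenchymal markers by count, with overlapping groups. Thy1, a membrane glycoprotein of stromal cells, neurons and T cells (chromosome 9, from 44043384 to 44048579), stood at 29.0, 20.3 and 29.3 CPM in controls and at 18.3, 31.0 and 27.3 CPM in mutants. Ly6a (chromosome 15, from 74994877 to 74998031, minus strand) stood at 18.9, 13.8 and 10.6 CPM in controls and at 17.0, 7.94 and 9.47 CPM in mutants. Nt5e, the ectoenzyme that makes adenosine from AMP outside the cell (chromosome 9, from 88327197 to 88372092), stood at 11.8, 15.1 and 7.92 CPM in controls and at 13.3, 7.94 and 12.0 CPM in mutants. Neither genotype was higher throughout for any of these genes before the length and GC correction described below. Their log2 changes were -0.033 (SE 0.34), -0.34 (SE 0.52) and -0.071 (SE 0.53). That of Ly6a ran from -0.74, without mutant sample 1, to -0.094, without control sample 1, and was -0.76 without both control sample 2 and mutant sample 1. In mutant sample 1, the shallowest library, these values rested on 84 counts for Thy1, 78 for Ly6a and 61 for Nt5e. The counting error of the last was 12.8%, against a coefficient of variation of 25.3% between the mutant samples. Reads of Ly6a can also match its close relatives in the Ly6 family, and how such reads were assigned is not given in the sources used here.

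The summed level of the 5 mesenchymal members came to 274, 369 and 243 CPM in controls and 191, 227 and 224 CPM in mutants. The groups did not overlap, and most of this sum was Pdgfra and Eng; after the length and GC correction described below they overlapped. The exons of Pdgfra, Eng and Mcam overlap annotated genes on the opposite strand over 4.55% (Gm42802), 1.51% (Fpgs) and 0.507% (Gm10687) of their length. Whether the counting used strand is not given in the sources used here, and of these neighbours the antisense genes had at most 8.29 CPM in any sample and Fpgs at most 26.0 CPM.

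The mutant libraries also differed from the control libraries along transcript length and GC content over all genes, so each member was compared again after a smooth trend with both had been removed from each sample. No member was called at an adjusted p under 0.05 after it, beside 0.84% of all genes. Acta2 was the only member lower past the study's threshold in both analyses, with a corrected log2 change of -0.71 (SE 0.20, adjusted p = 0.107, edgeR). After the correction the groups did not overlap for Acta2 and Ly6a, lower in the mutant samples, and for Cspg4, higher in them. This stands beside 26.5% of all genes, so the share was near the background. The changes of Pdgfrb and Eng shrank to -0.45 (SE 0.31) and 0.0067 (SE 0.20) and were no longer past the threshold. The correction used the longest transcript of each gene and its GC content. Ly6a, the shortest member (955 bases, GC 48.1%), moved to -1.57 (SE 0.47, adjusted p = 0.129, edgeR). Cspg4, the member with the longest transcript (8121 bases) and the highest GC (59.2%), moved to 0.80 (SE 0.33, adjusted p = 0.296, edgeR). Thus 3 members again passed the study's threshold, beside 14.9% of all genes, but a different set: Acta2, Ly6a and Cspg4. Rgs5 moved to 0.26 (SE 0.36), its groups then overlapped, and the median log2 change of the members became 0.023, beside -0.034 for all genes tested. After the correction, 4 of 10 values were below 0, beside 9 before it, and of the 5 separate ratios only Rgs5 to Pdgfrb and Rgs5 to Acta2 still separated the groups. In all, 16 of the 45 member pairs (35.6%) were then separate, beside 26.8% of all gene pairs.

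**Figure D3:**
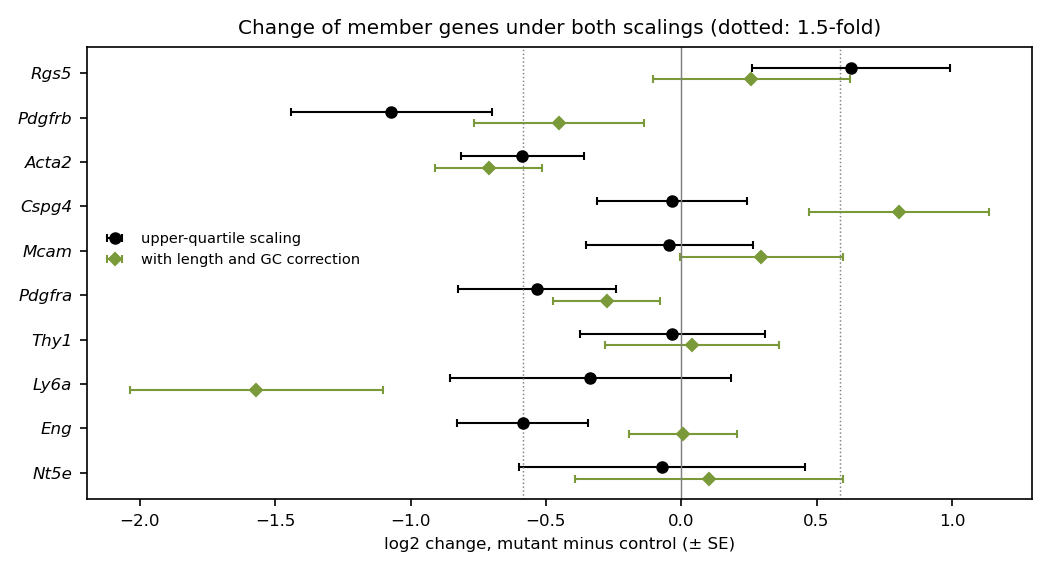
Log2 change of each member, mutant minus control, with its SE (n = 3 each), after upper-quartile scaling alone (circles) and with the length and GC correction (diamonds). The solid line marks no change and the dotted lines 1.5-fold; Acta2 lay beyond the lower dotted line in both analyses, Eng moved to 0.0067, Ly6a to -1.57 and Cspg4 to 0.80.

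Levels of different genes were compared per kilobase of exon (CPM divided by the length of all annotated exons). In the control samples Acta2 came first, with 40.5 ± 7.86 CPM per kilobase, followed by Rgs5 with 31.1 ± 13.8 (SD, n = 3 each). Pdgfrb, Eng and Pdgfra came next at 21.2 ± 9.32, 20.6 ± 4.87 and 15.9 ± 4.73, then Ly6a at 12.0 ± 3.46 and, slightly below it, Mcam. From Acta2 down to Mcam, each gene overlapped the next in the order. Thy1 at 8.75 ± 1.70, Cspg4 at 3.44 ± 0.638 and Nt5e at 1.35 ± 0.419 each lay below its predecessor in every sample. In the mutant samples Rgs5 came first, with 48.1 ± 6.49 CPM per kilobase, above Acta2 at 26.9 ± 1.45 and Eng at 13.7 ± 0.889 without overlap. Pdgfra, Mcam, Pdgfrb, Ly6a and Thy1 then overlapped in turn, down to 8.53 ± 2.17 for Thy1, and Cspg4 and Nt5e remained last at 3.36 and 1.29. By group mean, Acta2 was also first in the control and Rgs5 in the mutant samples with total counts only. The same held with the longest transcript as the length, and after the length and GC correction. In control sample 2, however, Rgs5 lay above Acta2 under every choice, at 41.7 and 37.4 CPM per kilobase of exon.

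**Figure D4:**
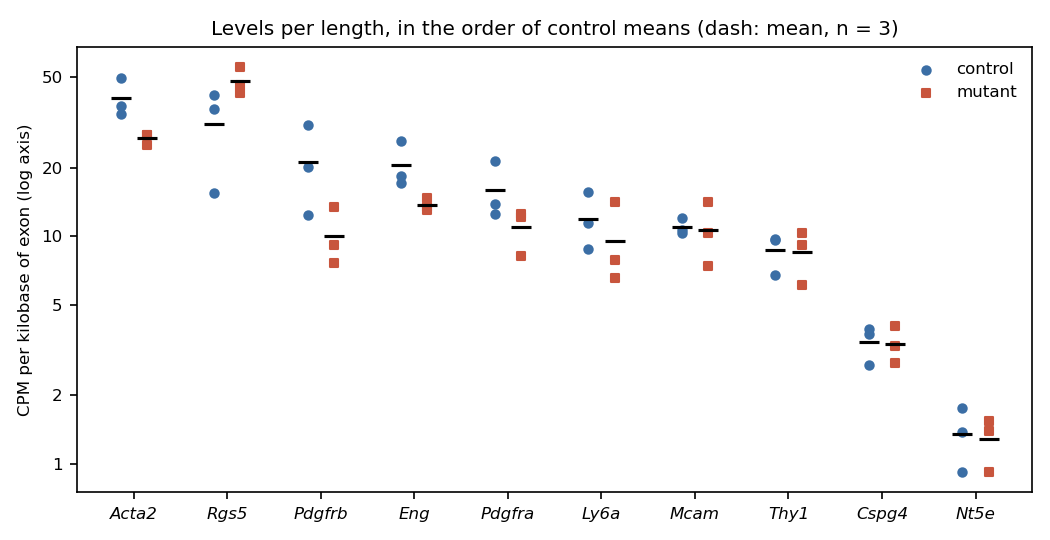
Level of each member in CPM per kilobase of exon on a log axis, ordered by the control mean. Circles are control and squares mutant samples, and dashes are means (n = 3). By mean, Acta2 leads in the control and Rgs5 in the mutant samples, but Rgs5 lies above Acta2 in control sample 2. Cspg4 and Nt5e are last in both groups.

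The sequences before the transcription start were read for the members with a RefSeq promoter entry on GRCm38.p6, which were 7 of the 10. The CArG box, bound by serum response factor in smooth muscle genes, was searched for in the 250 bases before the start on both strands. In its full form, with A or T at all 6 middle bases, it was found in none of the 7, beside 1.47% of 32851 promoters. With up to 1 of the 6 middle bases changed, it was found in Acta2 at 2 places and in Eng at 1, beside 8.59% of all promoters. The planned analysis named the box without this looser form. The stretches that hold the looser form are shown with the box in capitals and 10 bases on either side. Both genes were lower in every mutant sample before the length and GC correction, after which the groups of Eng overlapped. The boxes of Acta2 begin 84 and 34 bases before the RefSeq start, a stretch that GENCODE annotates as the first exon of an Acta2 transcript, and that of Eng begins 203 bases before it.
Acta2, chr19:34255438-34255467, minus strand: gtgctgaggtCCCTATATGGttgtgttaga
Acta2, chr19:34255388-34255417, minus strand: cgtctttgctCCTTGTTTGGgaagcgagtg
Eng, chr2:32646382-32646411, plus strand: agaccttgtcCCCTATAAGGttgccagatg

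The 250 bases before the start of Rgs5 are shown for comparison, all in lower case since they hold no such box. Rgs5 was the member that was higher in every mutant sample, but its groups overlapped after the length and GC correction. The windows of Pdgfra, Nt5e, Cspg4 and Mcam held no such box either. Whether the box goes with the direction of change was not tested. The Rgs5 window also holds no TATAAA or GGGCGG on either strand, motifs found in 12.4% and 32.7% of all promoters. A match or its absence describes these letters in this window only.
Rgs5, chr1:169655251-169655500, plus strand: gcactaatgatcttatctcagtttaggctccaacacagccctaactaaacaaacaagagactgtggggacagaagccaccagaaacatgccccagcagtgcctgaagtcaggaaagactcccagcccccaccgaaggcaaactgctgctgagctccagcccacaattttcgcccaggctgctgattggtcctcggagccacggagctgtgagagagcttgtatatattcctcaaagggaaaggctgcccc

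Genes that share a cell type or pathway with the members were taken from 8 lists with 124 tested genes. Of 22 other pericyte and smooth muscle genes, none passed the study's threshold, and their median log2 change was 0.070. Of these, 11 had log2 changes above 0 and 11 below. After the length and GC correction 1 of the 22 was lower past the threshold, and the median was 0.085. Genes of the contractile apparatus, in which Acta2 works, lay on both sides, and they were named after their values were seen. Myl9 and Tagln had log2 changes of 0.54 (SE 0.23) and 0.42 (SE 0.39). Myh11, Smtn, Mylk and Cnn1 had -0.62 (SE 0.53), -0.84 (SE 0.42), -0.43 (SE 0.60) and -0.14 (SE 1.45), and Lmod1, with at most 1.46 CPM in any sample, had -2.55 (SE 1.37). Myl9 stood at 103, 83.3 and 71.5 CPM in controls and at 140.1, 116 and 121 CPM in mutants, all higher (adjusted p = 0.234, edgeR), but after the length and GC correction its log2 change was 0.069 and its groups overlapped. Kcnj8 and Abcc9, the subunits of the pericyte potassium channel, had log2 changes of 0.44 (SE 1.15) and -0.88 (SE 0.50). Kcnj8 had 0 counts in mutant sample 1 and was past the study's threshold as higher without that sample. Abcc9 was past it as lower without mutant sample 2.

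Of 24 other mesenchymal and stromal genes, 1 was higher and 1 lower past the study's threshold, and their median log2 change was -0.26. After the length and GC correction the median turned to 0.099, with 1 gene higher and 3 lower past the threshold. Axin2, a Wnt target that also marks dental mesenchymal progenitors, stood at 16.1, 23.9 and 22.4 CPM in controls and at 7.42, 10.8 and 8.67 CPM in mutants (log2 change -1.21, SE 0.43, adjusted p = 0.155, edgeR). Every mutant was below every control, and the threshold was missed without control sample 2 or 3 and after the correction (log2 change -0.67, SE 0.37). Ctsk, a collagen-degrading protease of osteoclasts and periosteal progenitors, stood at 129, 129 and 73.6 CPM in controls and at 311, 103 and 258 CPM in mutants (log2 change 1.02, SE 0.43, adjusted p = 0.228, edgeR). Its groups overlapped, and it passed the threshold in 1 of the 6 analyses that each left out one library, that without mutant sample 2. After the correction its log2 change was 0.52 (SE 0.41), not past the threshold.

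In the PDGF pathway, none of 17 tested genes beside the receptors passed the study's threshold. Their median log2 change was -0.39, beside -0.040 for all genes tested, and 14 of 17 values were below 0. After the length and GC correction the median shrank to -0.15, with 1 gene lower past the threshold and none higher. The ligand genes Pdgfa, Pdgfb, Pdgfc and Pdgfd had log2 changes of -0.062, -0.96, -0.078 and 0.30. Pdgfb, made by endothelium for PDGFRB, stood at 8.91, 12.9 and 10.1 CPM in controls and at 0, 7.86 and 8.36 CPM in mutants. The 0 in mutant sample 1 allows up to 0.655 CPM at that depth, as 3 counts, which covers counting error only. Without that sample the log2 change of Pdgfb was -0.41, and after the length and GC correction it was -0.34, where that of Pdgfd turned to -0.32 and that of Pdgfc to 0.21.

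Around endoglin, 3 of 18 genes of TGF-beta and BMP9 signalling were lower past the study's threshold and none was higher (median log2 change -0.28). After the length and GC correction 2 were lower and 1 higher. Smad3, a mediator of TGF-beta signalling, stood at 67.2, 108 and 81.7 CPM in controls and at 30.6, 31.7 and 36.6 CPM in mutants. It fell by 1.38 on the log2 scale (SE 0.26, adjusted p = 0.0379, edgeR), with every mutant below every control. The call was lost after the length and GC correction (log2 change -0.85, adjusted p = 0.0728, edgeR) and in each of the 6 analyses without one library. Smad6, an inhibitor of BMP signalling, stood at 103, 112 and 79.1 CPM in controls and at 44.3, 58.6 and 48.5 CPM in mutants (log2 change -0.96, SE 0.24, adjusted p = 0.0525, edgeR). Its log2 change after the correction was -0.29. The endoglin partner receptor Acvrl1 stood at 38.3, 36.2 and 24.6 CPM in controls and at 1.96, 31.0 and 30.5 CPM in mutants. Its log2 change was -0.63 (SE 0.77), ran from -1.01 to -0.12 without one library, and was -0.074 after the correction. The target gene Id1 had a log2 change of 0.42 (SE 0.25), which turned to -0.052 after the correction.

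Beside Nt5e, the genes that make, degrade and sense extracellular adenosine had the lowest median of the lists, -0.81 over 15 genes, with 5 lower past the study's threshold and none higher. Of these 5, 2 (Adora1 and Adora2a) had 0 counts in every mutant sample and at most 1.32 CPM in the control samples, which are the deeper libraries, and the median is the same with both set to the most that a count of 0 allows. Entpd3, an ectonucleotidase that acts before Nt5e, stood at 91.1, 85.0 and 127 CPM in controls and at 25.3, 20.5 and 29.2 CPM in mutants. It fell by 2.02 on the log2 scale (SE 0.27, adjusted p = 0.0100, edgeR). It was also called after the length and GC correction (log2 change -1.74, adjusted p = 0.0309, edgeR) and in 4 of the 6 analyses without one library, but not without control sample 3 or mutant sample 2. The adenosine receptor gene Adora2a stood at 1.14, 1.32 and 0.838 CPM in controls and had 0 counts in every mutant sample. Against a floor of 3 counts over the pooled mutant group it was at least 9.59-fold lower, a bound that covers counting error only. It passed the filter on low counts only through the deeper control libraries, so its adjusted p of 0.0464 (edgeR) is not read as support. It was not called with control counts thinned or in any analysis without one library.

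Of 11 other Ly6 family genes, only Lypd1 passed the study's threshold. It stood at 14.2, 3.24 and 8.55 CPM in controls and at 33.0, 56.2 and 17.0 CPM in mutants, all higher (log2 change 2.03, SE 0.64, adjusted p = 0.112, edgeR). It did not pass without mutant sample 2. Its relatives Ly6c1 and Ly6e had log2 changes of 0.52 (SE 0.39) and -0.50 (SE 0.26), and that of Ly6c1 turned to -0.82 (SE 0.37) after the length and GC correction.

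Of 13 other Rgs genes, 1 was higher and 4 lower past the study's threshold (median log2 change -0.39), beside 0 higher and 2 lower after the length and GC correction. Rgs10, common in immune cells, stood at 19.7, 11.9 and 16.7 CPM in controls and at 69.4, 48.2 and 32.0 CPM in mutants. It rose by a log2 change of 1.63 (SE 0.38, adjusted p = 0.0464, edgeR), which was 0.50 and not called after the length and GC correction, and was called in none of the 6 analyses without one library. Of the 4 lower genes, Rgs7 and Rgs8 had 0 counts in every mutant sample and passed the filter on low counts only through the control samples. They were at least 6.92-fold and 4.74-fold lower against the same pooled floor, and their calls are not read as support. Their control levels were at most 1.13 and 0.607 CPM, near or below the 0.655 CPM that a count of 0 allows in mutant sample 1, and their calls were lost in each of the 3 analyses without one mutant sample, the ones in which both passed the filter on low counts. Of 5 other actin genes none passed the threshold. Actg1 was lower and Actb higher in every mutant sample, before and after the length and GC correction. Their log2 changes before it were -0.46 (SE 0.28) and 0.53 (SE 0.28). Acta1, the skeletal muscle isoform, ran from 2.33 to 1662 CPM.

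**Figure D5:**
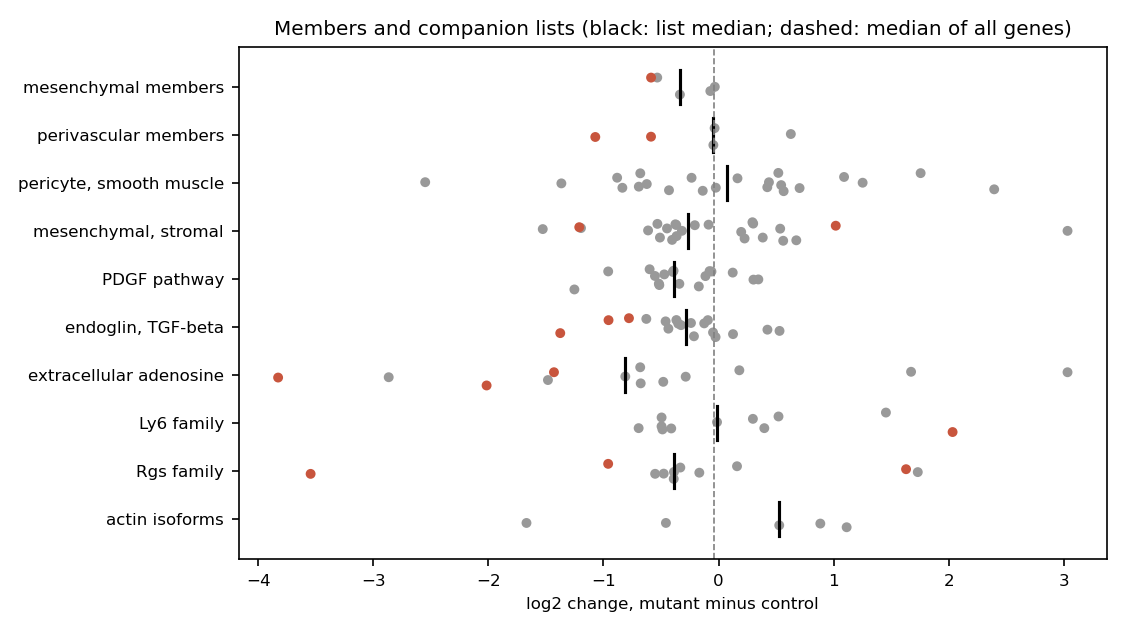
Log2 change, mutant minus control, of the members and of the genes in the 8 companion lists, one point a gene. Red points pass the study's threshold and grey points do not, black bars are list medians over all tested genes, and the dashed line is the median of all genes; 4 genes at 0 in every mutant sample are not drawn. The members lie between -1.07 and 0.63, and the lowest list median is that of extracellular adenosine at -0.81.

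Markers of the other cell types that share these genes were measured beside them. Of 10 macrophage and 7 tested Schwann and glial genes none passed the study's threshold. The macrophage median log2 change was 0.34, with 7 values above 0 and 3 below, and it turned to -0.18 after the length and GC correction. The Schwann and glial median was 0.61, with 6 values above 0 and 1 below. After the correction it was 0.66, with 1 gene higher past the threshold. Of 12 endothelial genes none passed the study's threshold. Their median log2 change was -0.28, with 8 values below 0 and 4 above (Cldn5, Egfl7, Sox17 and Emcn, at 0.053 to 0.49), and it turned to 0.21 after the length and GC correction. Pecam1 stood at 40.8, 64.6 and 39.6 CPM in controls and at 29.2, 35.6 and 24.2 CPM in mutants, and Cdh5 stood at 44.5, 95.2 and 49.1 CPM in controls and at 14.4, 39.3 and 39.0 CPM in mutants. Both were lower in every mutant sample, as Eng was, with log2 changes of -0.70 (SE 0.31) and -1.02 (SE 0.46), and the groups of both overlapped after the correction. The summed endothelial level was 307 to 480 CPM in the control and 243 to 365 CPM in the mutant samples, which overlapped, and its part in the level of Eng was not tested. The summed level of 5 T cell genes in the table was 3.93 to 7.15 CPM in the control and 3.50 to 23.1 CPM in the mutant samples, and the defining gene Cd3d was at or below 0.175 CPM in all but mutant sample 1. The summed level of 3 neuronal genes was 62.3 to 133 CPM in the control and 45.5 to 68.5 CPM in the mutant samples, with log2 changes of -0.84 (SE 0.39) for Tubb3, -0.62 (SE 0.61) for Uchl1 and 1.30 (SE 1.12) for Stmn2. The summed level of 8 dental epithelial genes was lower in every mutant sample (31551 to 69673 CPM) than in any control sample (85274 to 120895 CPM). Most of this sum was Amelx and Ambn. None of the 8 genes passed the study's threshold, and 3 were lower past it after the length and GC correction. Of their log2 changes 7 were below 0 and 1 above, that of Epcam (0.58, SE 0.27). The summed level of 7 erythroid genes was higher in every mutant sample (926 to 2560 CPM against 380 to 834 CPM), and after the length and GC correction it overlapped (627 to 1824 CPM against 554 to 1719 CPM). Its genes did not move together: Hba-a1 fell by 2.04 on the log2 scale (SE 0.42, adjusted p = 0.0460, edgeR), a call lost after the correction (adjusted p = 0.0503, edgeR) and in 5 of the 6 analyses without one library, while Hba-a2 and Hbb-bs had log2 changes of 1.36 (SE 0.51) and 1.81 (SE 0.49), and reads can match more than one of these close copies. The part of these shifts in the members' values was not tested.

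Across the 6 samples, the mean profile of the 5 perivascular members was most like those of Rassf8, Pkd2, Nek9, Peg3 and Tapbp, out of 9697 other genes with a mean of at least 10 CPM. Their profiles, as log2(CPM + 1) centred on the gene's own mean, differed from it by a root-mean-square of 0.0778 to 0.112. The 5 members themselves differed from their own mean by 0.273 to 0.537, so that none of them followed it closely. For the 5 mesenchymal members the nearest genes were Ctsb, Klf3, Dse, Fstl1 and Gtpbp2, with differences of 0.0478 to 0.0902, against 0.179 to 0.383 for the members. These values describe 6 libraries that differ in depth and genotype together.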

How the data were processed

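In Partek Flow the authors mapped the reads to mm10 (GRCm38), and they deposited estimated counts of each gene, not normalized. The deposited counts are labelled as filtered, so the 19060 genes had already passed a filter of the authors. The submitters' processing notes name TopHat2 2.0.8, and the counting model and its strand setting are not given in the sources used here. The authors' other deposited table holds their comparison (p-values, ratios and group means) and was not used.

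Estimated counts were rounded to whole numbers, filtered (minimum count 10, total 15), scaled by the upper quartile and compared with edgeR 4.0.16 in R 4.3.3 (two-sided quasi-likelihood test, genotype as the only term, Benjamini-Hochberg adjustment over all genes tested). The length and GC correction removed a smooth trend per sample (mgcv 1.9.3). DESeq2 1.42.0, limma 3.58.1, other filters and scalings, a block for the replicate number and fits without each library were the alternatives. Lengths, positions and GC content came from GENCODE M21, where 18637 symbols were found, a further 216 by a synonym, and 207 were not found. The code was tested on simulated data. A count of 0 allows 3 counts.

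Named were all members, Fgfr1 and Gli1, up to 2 genes higher and 2 lower per companion list with the smallest p past the study's threshold, and the 5 genes nearest to each mean profile. Other companion and marker genes were named after their values were seen. Members and lists were chosen with earlier results of these data known. Leaving out control sample 2 and mutant sample 1 together was chosen after seeing the data.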

Additional observations from a re-analysis of the deposited data

How the results depend on the processing

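Across 16 alternatives no member was called, with adjusted p-values of at least 0.0540, and 141 of 160 member changes kept their direction. Over all genes, 1074 called became 229 with no filter on low counts, 370 when a mean of 50 counts was required, 133 after the length and GC correction, 378 with control counts thinned, and 76 to 606 without one replicate; the 3137 past the study's threshold became 4733 without the filter and 2006 to 4732 without one replicate. Of the members, 3 past that threshold became 1 with limma voom and 0 to 3 without one replicate. The 19 companion and marker genes past it became 43 with total counts only, 30 with DESeq2 and 30 with limma voom, and 15 to 33 without one replicate. Without both control replicate 2 and mutant replicate 1, the numbers were 145, 0 and 34. The log2 change turned positive for Thy1 (0.083) and Mcam (0.0040) with limma voom and, after the correction, for Thy1 (0.039), Nt5e (0.10), Mcam (0.30), Eng (0.0067, from past the study's threshold at -0.59) and Cspg4 (0.80, then past it). Without one replicate it ran from -0.21 to 0.14 for Thy1, -0.28 to 0.16 for Nt5e, -0.20 to 0.076 for Cspg4 and -0.32 to 0.14 for Mcam, and without the 2 libraries it was 0.0093 for Nt5e and 0.22 for Mcam. In the control order, 4 of 10 places were kept with the longest transcript and 6 after the correction. The causes were not tested. With the replicate number as a block, 508 genes and 0 members were called, and Rgs5 and Pdgfrb were past the study's threshold (2 members). Same-numbered samples had correlations of deviations of 0.0742, 0.0228 and 0.0883, and differently numbered samples -0.0748 to -0.0013. Deviations were centred within each group of 3, so these values cannot decide whether same-numbered samples were paired. The study's methods mention 3 pairs of samples. The lowest count of a member was 61, of Nt5e in mutant sample 1.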
